A study of Mus musculus with 6 samples.

Results

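The genes described here encode the mitochondrial respiratory chain and ATP synthase. They were chosen by symbol, as every row of the deposited table starting with Ndufa, Ndufb, Ndufc, Ndufs, Ndufv, Uqcr, Cox4 to Cox8, Atp5 or mt-, together with Sdha, Sdhb, Sdhc and Sdhd. The rule took 103 of 20312 rows, 90 of them nuclear genes and 13 genes of the mitochondrial DNA. The nuclear rows comprised 80 subunit genes (36 of complex I, 4 of complex II, 8 of complex III, 17 of complex IV and 15 of complex V), 7 complex I assembly factors named Ndufaf, which the Ndufa pattern also takes, and 3 rows that carry an Atp5 name without being counted here as subunits.

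RNA was sequenced from mouse intestine (strain given as 129, age 5 months) in 3 Apc min/+;Sirt7KO libraries, called knockout below, and 3 APC min/+ libraries, called control. Both groups carry Apc min/+, a truncating allele of the Wnt pathway regulator Apc with which mice develop intestinal adenomas, and the knockout group additionally lacks Sirt7, a nuclear deacylase of the sirtuin family. Trizol was used to extract total RNA, and the Illumina TruSeq RNA kit to make libraries, per the labels' protocols. Intestinal segment, tumour content and whether each library came from its own mouse are not stated, so p-values measure the spread between libraries, and that spread could be technical.

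The respiratory chain passes electrons from NADH at complex I and from succinate at complex II through ubiquinone, complex III and cytochrome c to oxygen at complex IV, and complex V uses the resulting proton gradient to make ATP. Complexes I, III, IV and V are each assembled from subunits encoded in the nucleus and subunits encoded in mitochondrial DNA, while complex II is nuclear encoded throughout. In the intestine, mature absorptive enterocytes are rich in mitochondria and fuel nutrient transport in this way.

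Depth ranged from 24987313 to 27661396 recovered reads in knockout libraries and from 28123962 to 29603348 in control libraries. Values below are normalised reads, the authors' counts divided by 1 size factor per library, and fold changes are knockout over control on the log2(value + 1) scale with their SE. Sirt7 had 240, 224 and 219 normalised reads in knockout libraries and 2157, 2118 and 2244 in control libraries (log2 fold change -3.25 ± 0.07, limma adjusted p = 2.96e-20). Markers of absorptive enterocytes were abundant in all 6 libraries, the brush border protein gene Vil1 averaging 57699 ± 1009.5 in knockout and 85763 ± 1884 in control libraries (SD, n = 3 each).

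Nuclear subunit genes were lower in the knockout libraries across all 5 complexes. Of the 80 subunit rows, 78 reached the abundance filter of 10 normalised reads in at least 3 libraries, and 72 of these fell, 0 rose and 6 did not pass (limma adjusted p under 0.05 over 16600 rows). Over the whole table, 30.9% of tested rows were called lower and 31.6% higher. The median log2 fold change of the 78 subunits was -0.46, while that of all tested rows was 0.01 and the middle 50% of all rows spanned -0.36 to 0.43. Scaled to equal totals, the subunit median was -0.20 and 52 were lower and 3 higher, and under quantile normalization it was -0.28, with 66 lower and 2 higher. In all 72 genes that fell, every knockout library lay below every control library, an arrangement seen in 33.1% of all tested rows. Apart from Cox6b2, the changes of the genes that fell were modest, from -0.70 for Ndufa1 to -0.18 for Cox7a2l, with adjusted p-values in limma from 1.24e-12 for Atp5g3 to 0.00803 for Atp5k.

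**Figure D1:**
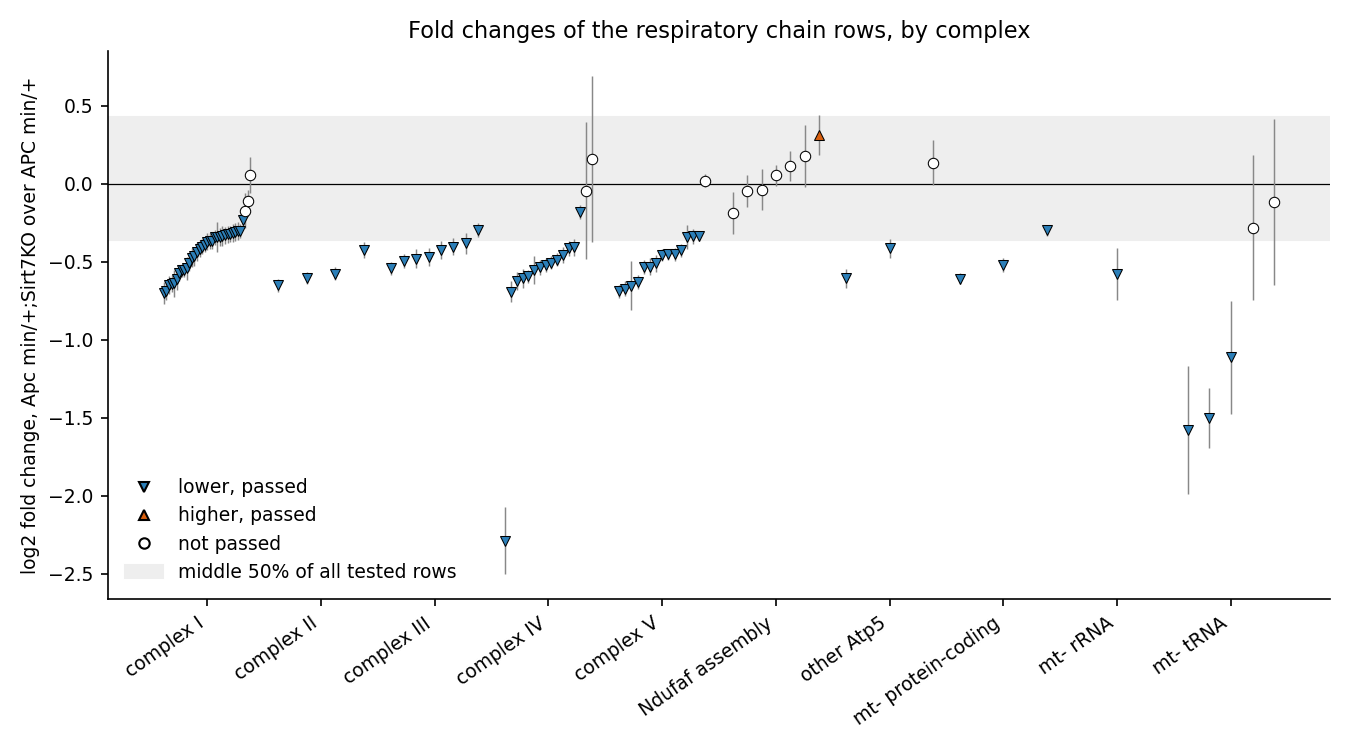
Log2 fold change (Apc min/+;Sirt7KO over APC min/+, y axis) of each tested respiratory chain row, grouped by complex or class on the x axis and ordered by value within it, with bars of 1 SE. Filled triangles passed at a limma adjusted p under 0.05, open circles did not, and the grey band holds the middle 50% of all 16600 tested rows, -0.36 to 0.43. The subunits of complexes I to V lie mostly below the band or at its lower edge, the Ndufaf assembly factors lie inside it, and mt-Co3 and mt-Nd5, which are below 0 here, are above 0 under quantile normalization.

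In bulk RNA, fewer cells of a type and less RNA per cell cannot be told apart, and markers of cell types differed between the groups in the same libraries. All 13 absorptive enterocyte markers fell, their summed level being 820322 to 856062 normalised reads in knockout and 1736860 to 1758440 in control libraries, with a median log2 fold change of -0.95 (under quantile normalization 11 were lower and 1 higher). All 6 crypt stem cell markers rose (summed 10139 to 11197 in knockout, 3428 to 3565 in control), as did all 5 proliferation markers (12260 to 12915 in knockout, 5747 to 6357 in control). All 8 B and T lymphocyte markers fell (1109 to 1304 in knockout, 6830 to 7282 in control), and all 6 pancreatic acinar (1815 to 2291 in knockout, 212 to 228 in control) and 7 gastric markers rose (4125 to 4294 in knockout, 5.04 to 19.6 in control). The gastric lipase gene Lipf was at 0 in all 3 control libraries, and no marker of these lists was at 0 in all 6 libraries. Lipf, Gkn1, Gkn2, Muc5ac, Atp4a, Tff2, Cela2a, Cpa1, Pnlip and Prss2 were below the filter of 10 in every control library. They were tested only because of their knockout values, so a rise was nearly the only call open to them. Ascl2 (16.5, 18.2 and 8.06 in control libraries), Ctrb1 (12.4, 6.41 and 5.04) and Tff1 (13.4, 10.7 and 0) also needed knockout values to reach the filter. The part of these cell types in the fall of the respiratory chain genes was not tested.

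Complex II, succinate dehydrogenase, had the lowest median of the 5 complexes (-0.59), and all 4 of its genes fell. The flavoprotein Sdha, which carries the succinate site (chromosome 13, 74322254 to 74350280, minus strand, mm10), had 11574, 12689 and 12619 normalised reads in knockout libraries and 18879, 20019 and 19010 in control libraries. The iron-sulphur subunit Sdhb had 4863, 5017 and 5104 in knockout and 7515, 7669 and 7566 in control libraries. For both genes the 2 groups were separated by a gap wider than the range within either group. Log2 fold changes were -0.65 ± 0.04 for Sdha and -0.60 ± 0.04 for Sdhb (limma adjusted p = 2.46e-12 and 6.73e-12).

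The membrane anchors of complex II, Sdhc and Sdhd, bind ubiquinone. Sdhd had 8592, 8810 and 9421 normalised reads in knockout libraries and 13236, 13382 and 13355 in control libraries. Sdhc changed least within the complex, with 3652, 4159 and 4151 in knockout and 5229, 5434 and 5373 in control libraries (log2 fold change -0.43 ± 0.05, limma adjusted p = 8.62e-08). The summed level of the 4 genes in knockout libraries was 66.3% of that in control libraries, compared with 70.9% to 74.2% for the other 4 complexes.

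Complex I, NADH dehydrogenase, is the largest complex. Of its 36 nuclear subunit rows 35 were tested, 32 fell and 3 did not pass, and the median was -0.37. With equal totals 17 were lower and 2 higher, with a median of -0.12 against 0.26 for all tested rows. Under quantile normalization 31 were lower and 0 higher. Ndufv1, the flavoprotein that oxidises NADH, had 4211, 4498 and 4502 normalised reads in knockout libraries and 6184, 6579 and 6663 in control libraries (-0.56 ± 0.04, limma adjusted p = 1.69e-10). The accessory subunits Ndufb9 and Ndufb3 followed it by p-value. Ndufb9 had 3081, 3153 and 3340 in knockout and 4784, 4515 and 4765 in control libraries, and Ndufb3 had 1444, 1429 and 1507 in knockout and 2425, 2254 and 2160 in control libraries. In each of the 3 genes the libraries of a group lay close together and the groups did not overlap.

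Besides the conserved core that carries the redox centres, complex I has many accessory subunits around it. Of the 29 accessory rows 28 were tested and 25 fell, with a median of -0.38 and a range of -0.70 to 0.06. The 3 rows that did not pass were accessory. Ndufb2 had 233, 245 and 245 normalised reads in knockout and 227, 239 and 230 in control libraries (0.06 ± 0.11, limma adjusted p = 0.694), and was called higher with equal totals (limma adjusted p = 0.0207). Ndufa7 (-0.11 ± 0.07) and Ndufb4 (-0.17 ± 0.11) were the other 2, with overlapping groups, and Ndufa7 was also called higher with equal totals. Per kilobase of annotated exon, Ndufb2 averaged 42.8 in knockout and 41.2 in control libraries, and Ndufb4 174 and 198. The medians over nuclear subunits were 1743 and 2332. Exons of Ndufb2 also overlap Gm42420 on the same strand, so reads of these rows may be incompletely counted, which was not tested. The iron-sulphur-fraction subunit gene Ndufs5 was below the filter, with 6.05 to 14.4 normalised reads in knockout and 3.21 to 10.3 in control libraries.

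Assembly factors build complex I without staying in it. Of the 7 factors named Ndufaf 0 fell, 1 rose and 6 did not pass, with a median of 0.05 (-0.07 under quantile normalization, with 1 lower and 0 higher, and 0.31 when libraries were scaled to equal totals, with 0 lower and 3 higher). Their summed level was 2548, 2545 and 2436 normalised reads in knockout libraries and 2405, 2411 and 2483 in control libraries, 2 groups that overlap. The complex I subunit sum in the same libraries was 67680, 71330 and 74046 in knockout and 98380, 94821 and 94064 in control.

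Ndufaf2, a late-acting factor, was the 1 that rose, with 258, 222 and 233 normalised reads in knockout and 217, 170 and 188 in control libraries (0.31 ± 0.13, limma adjusted p = 0.0396). This call was lost without knockout library 1 (limma adjusted p = 0.152), knockout library 3 (0.0665), control library 2 (0.163) or control library 3 (0.0755). It was also lost under quantile normalization (limma adjusted p = 0.426) and with DESeq2 (adjusted p = 0.0636). Ndufaf1, Ndufaf4, Ndufaf5, Ndufaf6 and Ndufaf7 had log2 fold changes between -0.05 and 0.18. Ndufaf3 had the lowest of the 7 (-0.19 ± 0.13), with 194, 267 and 261 in knockout and 242, 275 and 303 in control libraries. The SEs of the 7 fold changes ranged from 0.07 to 0.20.

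Complex III, cytochrome bc1, takes electrons from ubiquinol to cytochrome c, and all 8 of its Uqcr rows fell, with a median of -0.45. With equal totals 6 of the 8 were lower, and 7 under quantile normalization. The Rieske iron-sulphur protein Uqcrfs1 had 7822, 8546 and 8631 normalised reads in knockout libraries and 11962, 12268 and 12170 in control libraries (-0.54 ± 0.04, limma adjusted p = 7.69e-11). The core protein Uqcrc1 had 10918, 11892 and 12298 in knockout and 15812, 16658 and 17023 in control libraries. Its partner core protein Uqcrc2 changed least in the complex, with 10168, 11094 and 11247 in knockout and 13448, 13753 and 12708 in control libraries (-0.30 ± 0.04, limma adjusted p = 2.6e-06). That call was lost with equal totals (-0.04, limma adjusted p = 0.364) and under quantile normalization (-0.06, limma adjusted p = 0.197). Knockout library 1 was the lowest of the 3 knockout libraries for all 3 of these genes, and Uqcrq, a small accessory subunit, fell by 0.47 on the log2 scale.

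Complex IV, cytochrome c oxidase, had 17 nuclear rows, counting Ndufa4 and its relative Ndufa4l2 here because Ndufa4 is a subunit of this complex. Of 16 tested rows 14 fell, 0 rose and 2 did not pass, with a median of -0.51. Cox5a, a matrix-side subunit, had 4615, 4587 and 4904 normalised reads in knockout libraries and 7395, 6955 and 6950 in control libraries. Cox6c had 4867, 4867 and 4991 in knockout and 7548, 6980 and 6673 in control libraries. Both were lower in every knockout library, and Cox6c, at -0.52 ± 0.05 (limma adjusted p = 6.78e-10), lay at the median of the complex.

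Several complex IV subunits exist as isoforms from separate genes. Of the Cox4 pair, the widespread isoform Cox4i1 had 14018, 14421 and 15896 normalised reads in knockout and 21577, 20178 and 21153 in control libraries (-0.51 ± 0.04, limma adjusted p = 8.48e-10). Cox4i2, known as a hypoxia-responsive isoform, was near the detection limit, at 6.05 to 15.3 in knockout and 5.04 to 14.96 in control libraries (limma adjusted p = 0.81). Ndufa4 fell (-0.61 ± 0.06, limma adjusted p = 1.58e-07) while Ndufa4l2, also known to respond to hypoxia, had 10.1 to 18.1 in knockout and 10.1 to 22.4 in control libraries. The muscle isoform Cox6a2 was below the filter, at 0 to 5.72 in knockout and 0 to 9.06 in control libraries. Cox6a1 (-0.54 ± 0.05) and Cox8a (-0.41 ± 0.05), the general isoforms of their families, fell in the range of the other subunits.

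Cox6b2, an isoform known mainly from testis (chromosome 7, 4751792 to 4753094, minus strand, mm10), had the largest change of any nuclear subunit. It had 46.8, 39.3 and 27.7 normalised reads in knockout libraries and 215, 153 and 193 in control libraries, so that the highest knockout value was far below the lowest control value (-2.29 ± 0.21, limma adjusted p = 2.9e-09). The widespread counterpart of Cox6b2, Cox6b1, had 8083, 8453 and 8810 in knockout and 12437, 11877 and 11216 in control libraries (-0.49 ± 0.04). Cox6b2 made up 0.576%, 0.463% and 0.313% of the summed Cox6b reads in knockout libraries and 1.70%, 1.27% and 1.69% in control libraries.

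The 3 rows named Cox7a had log2 fold changes from -0.69 to -0.18. Cox7a1, the isoform of striated muscle and brown fat, had 738, 763 and 841 normalised reads in knockout and 1325, 1242 and 1220 in control libraries (-0.69 ± 0.07, limma adjusted p = 4.53e-09). The general isoform Cox7a2 fell by a like amount (-0.62 ± 0.06), and Cox7a1 made up 14.5% to 15.04% of the pair in knockout and 14.9% to 16.2% in control libraries. Of 8 tested muscle markers 5 fell and 1, Actg2, rose (0.24 ± 0.05). Their summed level was 33845 to 36153 in knockout and 43644 to 45887 in control libraries, with none at 0. The striated muscle genes Ckm and Acta1 fell by 1.15 and 1.33 on the log2 scale, and Myh11, Acta2 and Des by 0.66, 0.44 and 0.40. Cnn1 (-0.01 ± 0.05) and Tagln (-0.06 ± 0.05) did not pass, and the striated muscle gene Tnnt3 was below the filter. Of 6 adipocyte markers 5 fell and 1, Cidea, rose, with a summed level of 436 to 504 in knockout and 877 to 912 in control libraries. Lep and Plin1 were at 0 in knockout libraries 1 and 2 and Adipoq in knockout library 1. Lep, Plin1, Adipoq and Cfd reached the filter through the control libraries, so a fall was nearly the only call open to them. Cidea, at 10.3, 8.55 and 12.1 in control libraries, needed its knockout values to reach the filter. The part of muscle and fat in the fall of Cox7a1 was not tested. Cox7a2l, which joins complexes III and IV into supercomplexes, had 4005, 4360 and 4371 in knockout and 4871, 4697 and 4855 in control libraries (-0.18 ± 0.04, limma adjusted p = 0.00129), a fall that became 0.07 (limma adjusted p = 0.137) when libraries were scaled to equal totals and was also lost after quantile normalization (limma adjusted p = 0.937).

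Complex V, ATP synthase, had 15 subunit rows, of which 14 fell and 1 did not pass, with a median of -0.46. The 5 genes of the catalytic F1 head fell within a narrow range, -0.46 to -0.34. Its alpha subunit Atp5a1, identified as the modifier of Min locus Mom2 in mice, had 38066, 40721 and 41653 normalised reads in knockout and 54662, 55065 and 55060 in control libraries (-0.45 ± 0.04, limma adjusted p = 1.3e-10). The catalytic beta subunit Atp5b had 48842, 49762 and 50620 in knockout and 62547, 63110 and 62800 in control libraries (-0.34 ± 0.03), but was called higher under quantile normalization. The 7 genes of the stalks and membrane part, without the c ring, all fell, with a median of -0.53. Among them the peripheral stalk subunits Atp5f1 and Atp5o had log2 fold changes of -0.63 ± 0.05 and -0.67 ± 0.05 (limma adjusted p = 4.25e-11 and 8.8e-11).

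The c ring, the rotor through which protons pass, is built from 1 protein that 3 genes encode with different mitochondrial targeting sequences. Their log2 fold changes ran from -0.69 to 0.02. Atp5g3 had 11813, 12277 and 12881 normalised reads in knockout libraries and 20808, 19018 and 19794 in control libraries (-0.69 ± 0.04, limma adjusted p = 1.24e-12). Atp5g1 had 3774, 3724 and 3879 in knockout and 5114, 5230 and 5231 in control libraries (-0.45 ± 0.04, limma adjusted p = 2.07e-09). Atp5g2 did not pass, with 3756, 3778 and 3916 in knockout and 3857, 3726 and 3714 in control libraries (0.02 ± 0.04, limma adjusted p = 0.717), and its groups overlapped. Atp5g2 thus made up 19.4%, 19.1% and 18.9% of the summed reads of the 3 genes in knockout libraries and 12.95%, 13.3% and 12.9% in control libraries. The shares did not overlap (exact permutation test, two-sided, p = 0.1, the smallest that 3 against 3 libraries allow). Shares of Atp5g1 and Atp5g3 gave the same p. All of these shares are computed from the reads just given, so they add no separate evidence. Per kilobase of annotated exon, knockout libraries averaged 5650 normalised reads for Atp5g3, 2279 for Atp5g2 and 772 for Atp5g1. Control libraries averaged 9112, 2248 and 1057, the same order. That order depends on the annotated exon length, 4912 bases for Atp5g1 and 1675 for Atp5g2. Undivided, Atp5g1 averaged 5192 and Atp5g2 3766 in control libraries, but 3792 and 3817 in knockout libraries. When libraries were scaled to equal totals, or under quantile normalization, Atp5g2 was called higher.

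**Figure D2:**
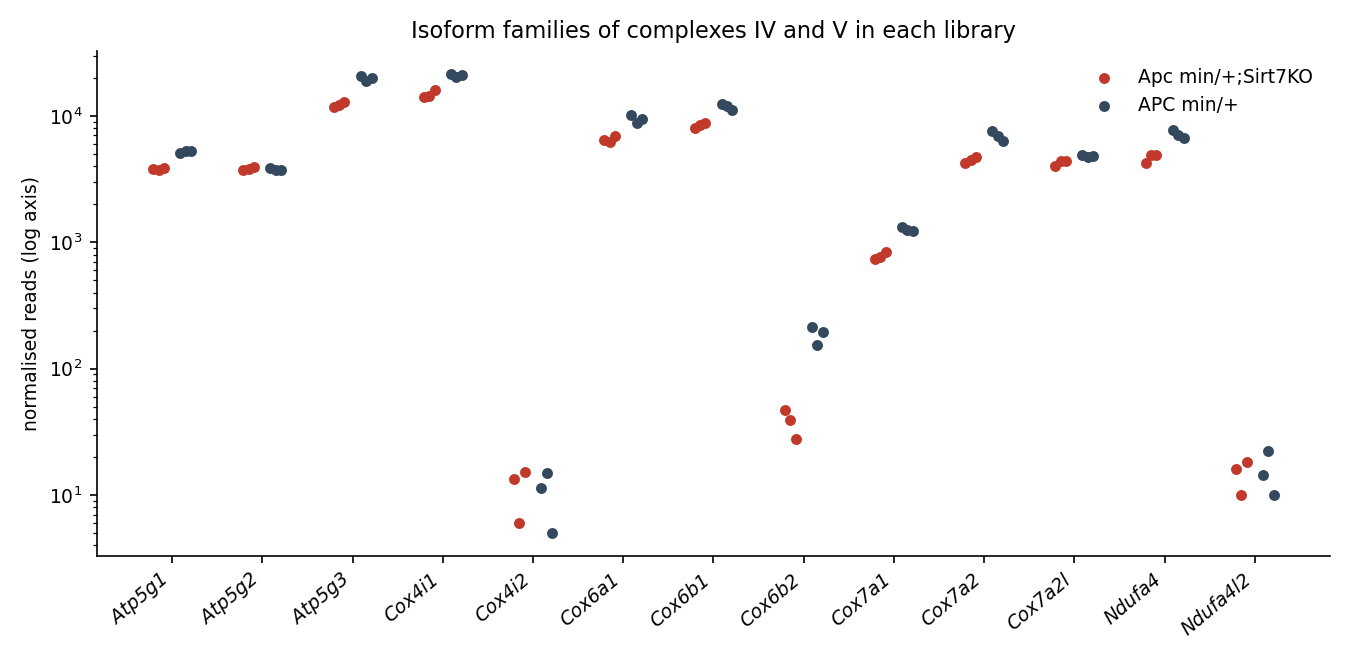
Normalised reads (log axis) of the isoform families of complexes IV and V, with 1 point per library for Apc min/+;Sirt7KO (red, left of each pair) and APC min/+ (dark blue). Atp5g2 overlaps between groups while Atp5g1 and Atp5g3 do not, and Cox6b2 shows the widest gap, with 27.7 to 46.8 in knockout and 153 to 215 in control libraries.

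Because the 3 c ring genes encode 1 mature protein with unlike fold changes, their promoter windows are shown (250 bases before to 50 after the annotated start, gene strand, RefSeq, GRCm38.p6), with that of Sdha as a strongly lowered gene with several matches. Capitals mark matches, on either strand, to the core of the site of nuclear respiratory factor 1 (GCGC, then any base, then TGCGC). The windows lie at chr11:96075582-96075881 (Atp5g1), chr15:102670998-102671297 (Atp5g2), chr2:73911277-73911576 (Atp5g3) and chr13:74350191-74350490 (Sdha), all on the minus strand.
Atp5g1: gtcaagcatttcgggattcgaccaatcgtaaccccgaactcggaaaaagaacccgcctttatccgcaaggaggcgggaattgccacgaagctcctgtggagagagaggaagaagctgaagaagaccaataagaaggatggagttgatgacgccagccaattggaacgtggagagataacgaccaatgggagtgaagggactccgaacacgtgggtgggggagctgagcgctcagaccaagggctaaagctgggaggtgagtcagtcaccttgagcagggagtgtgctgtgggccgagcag
Atp5g2: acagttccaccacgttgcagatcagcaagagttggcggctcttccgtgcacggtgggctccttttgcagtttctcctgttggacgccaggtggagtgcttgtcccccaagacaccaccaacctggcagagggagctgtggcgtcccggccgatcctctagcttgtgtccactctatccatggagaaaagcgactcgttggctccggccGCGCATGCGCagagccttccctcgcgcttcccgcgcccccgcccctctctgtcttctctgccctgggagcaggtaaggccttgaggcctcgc
Atp5g3: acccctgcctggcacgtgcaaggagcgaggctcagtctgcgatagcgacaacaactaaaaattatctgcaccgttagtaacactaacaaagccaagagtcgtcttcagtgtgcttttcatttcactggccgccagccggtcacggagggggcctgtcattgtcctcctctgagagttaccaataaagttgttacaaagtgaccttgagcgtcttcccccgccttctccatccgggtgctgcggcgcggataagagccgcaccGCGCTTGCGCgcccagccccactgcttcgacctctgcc
Sdha: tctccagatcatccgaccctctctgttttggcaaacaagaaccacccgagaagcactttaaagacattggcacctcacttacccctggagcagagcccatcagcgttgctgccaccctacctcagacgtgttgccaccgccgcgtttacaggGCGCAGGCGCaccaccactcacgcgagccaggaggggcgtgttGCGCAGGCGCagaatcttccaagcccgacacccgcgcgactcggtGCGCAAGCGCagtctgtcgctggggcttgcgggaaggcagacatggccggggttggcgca

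Atp5g2, which did not pass, and Atp5g3, which fell, each held 1 match, Atp5g1 held 0 and Sdha held 3. The GENCODE span of Atp5g2 runs to 102672352, so its window lies inside the gene, while the other windows reach past their gene ends. Sequence before that outer end of Atp5g2 was not searched. A window was found for 74 of the 90 nuclear rows. Of 71 windows of subunit genes, 25.4% held the nuclear respiratory factor 1 letters, compared with 4.6% of all 32851 promoter windows. Among the 65 windows of subunits that fell, the share was 23.1%. Other lowered genes differed, with 1 match in Sdhd and 0 in Sdhb, Cox5a, Uqcrfs1, Ndufv1 and Ndufb3. A link between these letters and the fall was not tested. Letters AAGATGGC, of the factor YY1, were in 14.1% of subunit windows and 2.75% of all windows, and CCGGAAGT, of the ETS family, in 7.04% and 3.89%. Both strands were searched, a palindromic match was counted once, and in the 4 windows printed no match to the YY1 or ETS letters was found. Of the 6 windows of Ndufaf genes, which did not fall, 2 held the nuclear respiratory factor 1 letters.

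Rows with an Atp5 name that are not counted as subunits went along in part. Atp5sl, now named Dmac2, a complex I assembly gene, fell (-0.42 ± 0.06), and its relative Atp5s did not pass (0.14 ± 0.14). Atp5l2 fell (-0.61 ± 0.06), but GENCODE annotates it as a processed pseudogene, so reads of the subunit gene Atp5l may have been assigned to it or the reverse. Many other subunit genes have processed copies in the mouse genome, and 38 of the 103 rows overlap exons of another annotated gene, so their separate values depend on the authors' counting.

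The mitochondrial DNA encodes 13 of the chain's proteins, and the rows analysed here included 3 of them, mt-Co3 of complex IV and mt-Nd3 and mt-Nd5 of complex I, all lower in knockout libraries, with mt-Co3 and mt-Nd5 turning higher under quantile normalization. Transcripts of the other 10 proteins were not analysed here. mt-Co3 (mitochondrial DNA, 8607 to 9390, plus strand) had 256762, 253606 and 261597 normalised reads in knockout libraries and 414557, 398463 and 364995 in control libraries (-0.61 ± 0.04, limma adjusted p = 9.45e-12). mt-Nd3 had 14340, 14276 and 12971 in knockout and 21247, 19411 and 19026 in control libraries (-0.52 ± 0.05, limma adjusted p = 1.67e-09). mt-Nd5 had 25110, 24728 and 24710 in knockout and 32028, 30363 and 29312 in control libraries (-0.30 ± 0.04, limma adjusted p = 2.09e-07), a call lost when libraries were scaled to equal totals (-0.04, limma adjusted p = 0.28). For all 3 the groups did not overlap, and control library 1 was the highest of the 6.

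Per kilobase of annotated exon, mt-Co3 stood far above the nuclear subunits in both groups. It averaged 328217 normalised reads per kilobase in knockout and 500857 in control libraries, while Atp5a1, the highest nuclear subunit on this scale, averaged 12806 in knockout and 17521 in control libraries. The median over nuclear subunits was 1743 in knockout and 2332 in control libraries. mt-Nd5 averaged 13624 in knockout and 16758 in control libraries, close to Atp5a1. The mt-Co3 row overlaps mt-Atp6 on the same strand and mt-Nd5 overlaps mt-Nd6 on the opposite strand, and with no strand setting given such reads cannot be told apart.

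The remaining mt- rows were ribosomal and transfer RNAs and had low counts in these libraries. How well the library kit and the authors' counting recover such RNAs was not tested. The transfer RNA rows span only 67 to 71 bases, and their reads may come from longer transcripts. The values below are therefore read counts of the rows and not levels of the mature RNAs. The small ribosomal RNA mt-Rnr1 fell, with 90.0, 89.7 and 81.1 normalised reads in knockout and 134, 134 and 123 in control libraries (-0.58 ± 0.17, limma adjusted p = 0.00429), a call lost with equal totals (-0.33, limma adjusted p = 0.0892). The large one, mt-Rnr2, did not reach 5 in any library. Of 8 transfer RNA rows 5 were tested and 3 fell. The tryptophan tRNA mt-Tw had 46.8, 47.4 and 48.6 in knockout and 163, 122 and 129 in control libraries (-1.50 ± 0.19, limma adjusted p = 4.66e-07), and its annotated span touches mt-Nd2. mt-Tt fell (-1.11 ± 0.36), as did mt-Tq (-1.58 ± 0.41), but mt-Tq reached the filter in 1 knockout library and 3 control libraries.

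The summed levels of the nuclear and of the mitochondrial rows were both lower in every knockout library. The 80 nuclear subunit rows summed to 367842, 385083 and 397970 normalised reads in knockout libraries and 542707, 524364 and 520247 in control libraries, so that knockout libraries averaged 72.5% of control. The 13 mt- rows summed to 296407, 292808 and 299453 in knockout and 468248, 448582 and 413678 in control libraries, or 66.8% of control. mt-Co3 alone gave 86.6% to 87.4% of the mt- sum in knockout and 88.2% to 88.8% in control libraries, and without it the mt- sum was 76.5% of control. The ratio of the mt- sum to the nuclear sum was 0.806, 0.760 and 0.752 in knockout and 0.863, 0.855 and 0.795 in control libraries, and these ranges overlapped. As a share of all normalised reads, nuclear subunits were 1.48%, 1.53% and 1.57% in knockout and 1.80%, 1.74% and 1.74% in control libraries, and mt- rows 1.19%, 1.16% and 1.18% in knockout and 1.55%, 1.49% and 1.39% in control libraries.

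**Figure D3:**
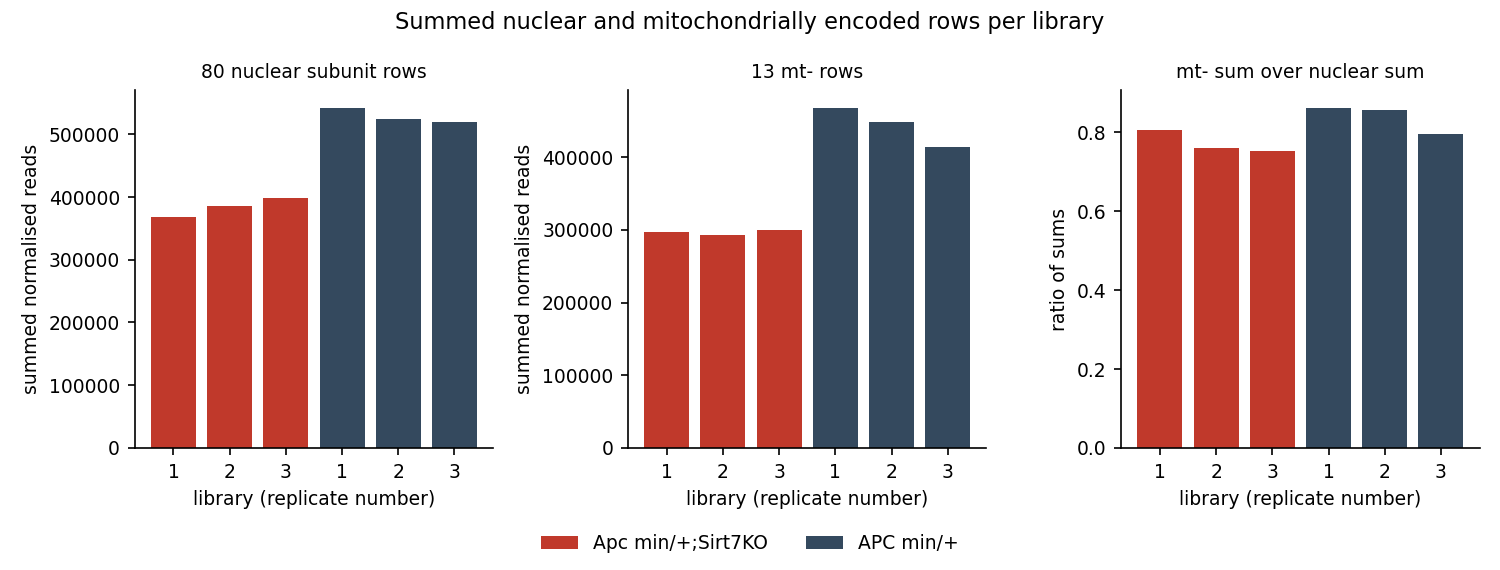
Summed normalised reads of the 80 nuclear subunit rows (left), of the 13 mt- rows (centre) and the ratio of the second to the first (right), with 1 bar per library, Apc min/+;Sirt7KO in red and APC min/+ in dark blue. Both sums are lower in every Apc min/+;Sirt7KO library, with 367842 to 397970 against 520247 to 542707 for nuclear rows, while the ratio overlaps between groups.

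Within each group most, but not all, subunits differed in the same direction between any 2 libraries. Relative to the control mean, the median nuclear subunit stood at -0.51, -0.47 and -0.41 on the log2 scale in knockout libraries 1, 2 and 3, and at 0.05, -0.02 and -0.03 in control libraries 1, 2 and 3. Knockout library 1 was below knockout library 3 for 74 of 78 subunits, with a median difference of -0.12, and control library 1 was above control library 3 for 57 of 78, with a median difference of 0.09. The last difference was larger among subunits with a shorter exon length (0.15) than among those with a longer one (0.06), split at the median of 1631 bases. The median of the 3 mt- protein-coding rows was lowest in knockout library 3 (-0.58) and at -0.47 and -0.48 in knockout libraries 1 and 2. The rows differed in this, since mt-Nd3 was lowest in knockout library 3 (12971 normalised reads) and mt-Co3 highest there (261597). Their sum was 296212, 292609 and 299279 in knockout libraries 1, 2 and 3. Across the 78 subunits the fold change had Spearman correlations of 0.21 with exon length and -0.22 with mean level, given as a description because the genes share the same 6 libraries.

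**Figure D4:**
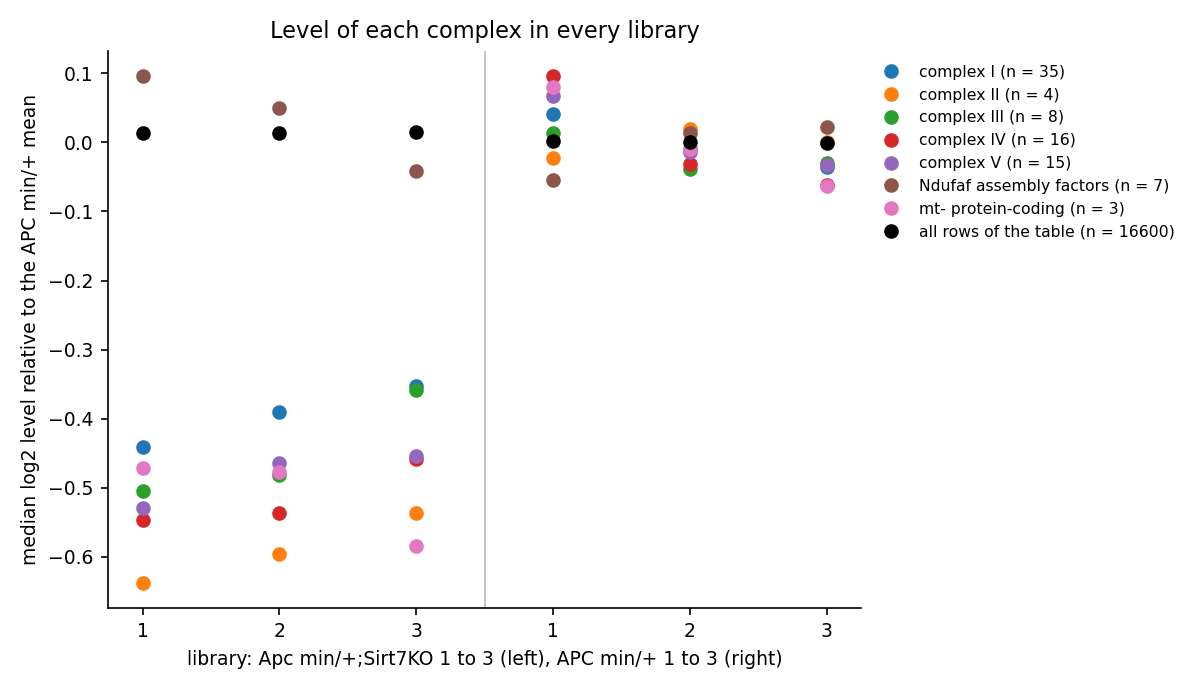
Median log2 level relative to the APC min/+ mean (y axis) of the tested rows of each complex or class in each library (x axis), Apc min/+;Sirt7KO on the left and APC min/+ on the right. Complexes I to V and the mt- protein-coding rows lie between -0.64 and -0.35 in Apc min/+;Sirt7KO libraries, and the Ndufaf factors and the median of all 16600 rows lie near 0 in both groups. Levels under quantile normalization are not plotted. In that setting the median log2 fold change of the mt- protein-coding rows was 0.165.

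Further mitochondrial gene lists had higher medians than the nuclear subunits. The counts in these lists stand against 30.9% lower and 31.6% higher among all tested rows. Scaling to equal totals moved the median of all tested rows to 0.26 and that of the nuclear subunits to -0.20. It called 11144 of 16600 rows. Counts and medians given below for equal totals stand against those values. Among 19 electron carriers and inputs to the chain, 13 fell and 2 rose, with a median of -0.31 (7 lower and 4 higher when libraries were scaled to equal totals). The mobile carrier cytochrome c, Cycs, had 1118, 1104 and 1105 normalised reads in knockout and 1849, 1690 and 1663 in control libraries (-0.64 ± 0.06, limma adjusted p = 1.35e-09). Gpd2, which feeds electrons from glycerol phosphate into ubiquinone, fell (-0.66 ± 0.04), as did Etfa, which does so from fatty acid oxidation (-0.47 ± 0.04). Among 30 tested assembly factors of complexes II to V 13 fell and 4 rose, with a median of -0.12 that became 0.13, with 2 lower and 11 higher, when libraries were scaled to equal totals. The complex IV factors Higd2a, Coa3 and Cox11 fell by 0.38, 0.35 and 0.45 on the log2 scale, and Coa3 did not pass with equal totals. Of 8 further complex I assembly genes 3 fell and 1 rose, while with equal totals 0 were lower and 5 higher. The 3 that fell were Timmdc1 (-0.42), Tmem126b (-0.38) and Ecsit (-0.21, and 0.05 with equal totals). The Ecsit call was lost without knockout library 1 (limma adjusted p = 0.0751), knockout library 2 (0.114) or control library 3 (0.0856).

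Genes that maintain, transcribe and process mitochondrial nucleic acids had medians above 0 under every scaling tried. Of 12 tested genes of mitochondrial DNA maintenance and transcription 5 rose and 1 fell, with a median of 0.23 (10 higher and 1 lower with equal totals). The single-stranded DNA binding protein Ssbp1 and the topoisomerase Top1mt rose by 0.46 and 0.79 on the log2 scale, and the polymerase accessory subunit Polg2 fell by 0.59. The packaging and transcription factor Tfam had 1082, 1128 and 1107 normalised reads in knockout and 1092, 1100 and 996 in control libraries and did not pass (limma adjusted p = 0.427). Of 16 tested genes of mitochondrial RNA processing 8 rose and 1 fell, with a median of 0.18 (13 higher and 1 lower with equal totals, and 7 higher and 3 lower under quantile normalization). Those that rose included the tRNA-processing nuclease Elac2 (0.69 ± 0.10) and the polynucleotide phosphorylase Pnpt1 (0.54 ± 0.07). Fastk fell by 0.38. Of 22 tested genes of import and the outer membrane 7 fell and 5 rose, with a median of 0.02 (2 lower and 14 higher with equal totals). Among all tested rows 30.9% were called lower and 31.6% higher. Chchd3 and Immt, which shape the cristae, and the channel Vdac2 fell by 0.43, 0.31 and 0.34, calls that Immt lost with equal totals and that Immt and Vdac2 lost under quantile normalization.

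Transcriptional regulators of the nuclear-encoded chain went both ways, with 7 of 13 lower and 3 higher, a median of -0.19, and with equal totals 4 lower, 6 higher and a median of 0.07. The coactivator Ppargc1a had 1607, 1428 and 1497 normalised reads in knockout and 2075, 1980 and 1967 in control libraries (-0.41 ± 0.06, limma adjusted p = 8.99e-07), and its relative Ppargc1b fell (-0.43 ± 0.09). The nuclear receptors Esrra and Ppara fell by 0.46 and 0.45 on the log2 scale. The third coactivator of that family, Pprc1, rose, with 1079, 1086 and 1140 in knockout and 694, 551 and 644 in control libraries (0.81 ± 0.08, limma adjusted p = 4.4e-09). Nrf1, which encodes nuclear respiratory factor 1, and Gabpa, an ETS factor, did not pass (0.12 ± 0.07 and -0.00 ± 0.05).

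**Figure D5:**
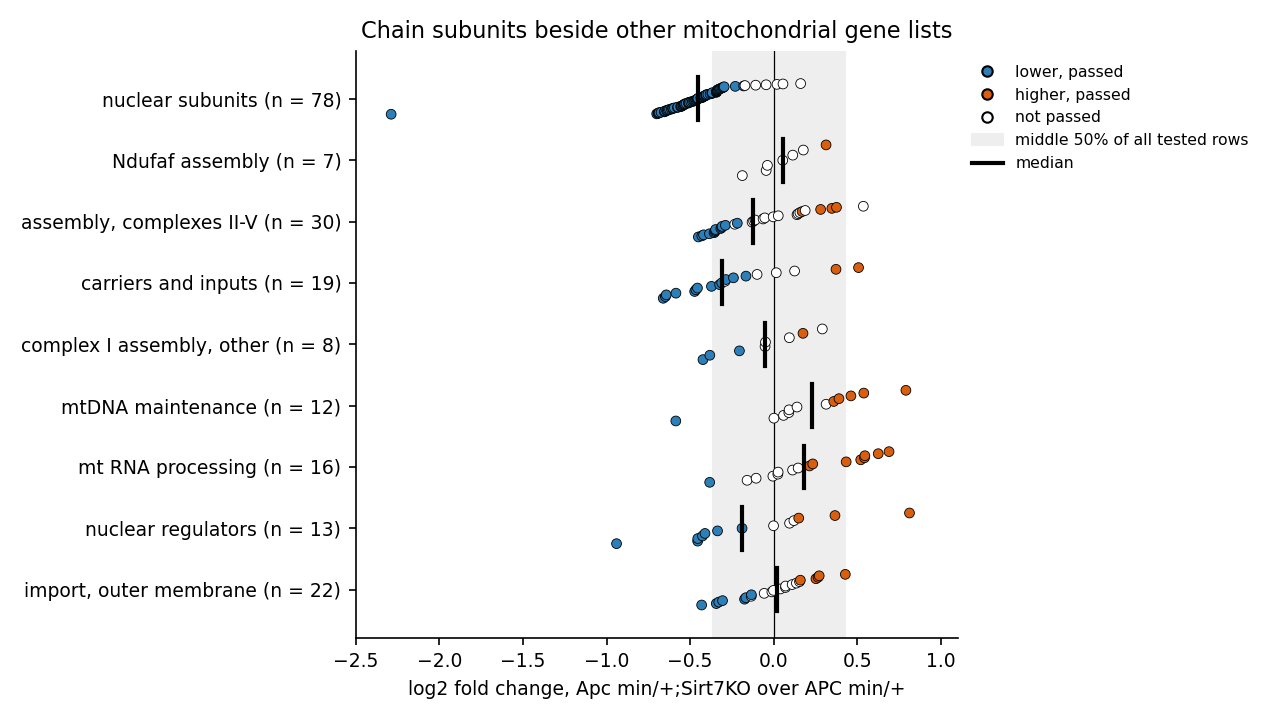
Log2 fold change (Apc min/+;Sirt7KO over APC min/+, x axis) of each tested gene of the nuclear subunits, the Ndufaf factors and 7 further mitochondrial gene lists, with a bar at each list's median and a grey band for the middle 50% of all tested rows. The nuclear subunits have the lowest median, -0.46, and the lists for mitochondrial DNA maintenance and RNA processing have medians of 0.23 and 0.18.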

How the data were processed

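RNA sequencing values were analysed for 3 Apc min/+;Sirt7KO and 3 APC min/+ intestine libraries. The authors' deposited table gives a signal value per gene and library, a read count divided by that library's size factor. Per the file headers it also holds the authors' mean signal, log2 fold change with its standard error, Wald statistic (a score) and p-values. Reads were handled with DESeq2, HTSeq 0.6.1p1, TopHat2 2.1.1, TopHat and FastQC on build mm10, per the submitters' processing notes, which give no order. The strand setting, the annotation and the treatment of reads that map to several places are not given in the sources used here.

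All tests used the whole table. Rows that reached 10 in 3 or more libraries (16600) entered limma 3.58.1 (R 4.3.3, trend and robust) on log2(value + 1), with genotype as the only term and Benjamini-Hochberg adjustment. The fit was first run on simulated data in which few rows differed between otherwise equal groups. That run therefore does not test the scaling or a table with this many changed rows. Dividing each column by its size step gave whole reads (within 0.01) for 100% of values, and edgeR 4.0.16 and DESeq2 1.42.0 were run on these as alternatives, calling 10374 and 9906 rows. No 2 libraries of a group agreed within counting noise (chi-square per gene averaged 3.73 to 6.92). Of the 90 nuclear rows 74, and of the 13 mt- rows 7, were lower at an adjusted p under 0.05 in the authors' deposited table, and 0 were higher.

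Genes were named by rule: Sirt7, mt- protein rows, the highest mt- ribosomal and transfer RNA rows, complex II, up to 3 rows per complex and direction by p, the smallest change per complex, isoform families, and up to 3 genes of each further list by p. Others named (Ndufa1, Ndufa7, Ndufb4, Ndufs5, Atp5a1, Atp5b, Atp5k, Atp5l2, Atp5sl, mt-Rnr2, mt-Tt, mt-Tq, Tfam, Ppargc1a, Ppargc1b, Nrf1, Gabpa, and markers) were chosen after their values were seen, as was the split of complexes I and V into modules. A result for the core subunits of complex I is not reported here. The members and gene lists were chosen with earlier results of these data known. Positions are from GENCODE M21 for GRCm38, also called mm10, in which all 103 rows were matched. Alternatives were a replicate block, leaving out each library, other scalings, filters and pseudocounts, non-robust limma and the count models.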

Additional observations from a re-analysis of the deposited data

How the results depend on the processing

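With the replicate number as a block, 72 nuclear subunit rows and 7 mt- rows were lower, as without it, and no call of a named gene changed. The numbers are not taken to pair the libraries, since same-numbered libraries correlated at 0.00, 0.04 and -0.01. Leaving out each library in turn gave 72 nuclear subunit rows lower every time, with a median of -0.48 to -0.43, and 7 mt- rows lower, with a median of -0.62 to -0.53. Scaling to equal totals raised the median of all tested rows from 0.01 to 0.26 (also 0.26 with mt- rows left out of the totals). The median of the nuclear subunits became -0.20 (-0.21 without mt- rows), which is -0.46 relative to all rows in both, and that of the mt- rows -0.33 (-0.33), with 5 lower. Nuclear subunits lower then numbered 52 (54), with 3 (2) higher, and those of complex I 17 (19) lower and 2 (1) higher, and 3 Ndufaf genes were higher. Cox7a2l became 0.074 (0.070) and Ecsit 0.049 (0.044), without passing. Under quantile normalization the nuclear median was -0.28, with 66 lower and 2 (Atp5b and Atp5g2) higher, complex V 11 lower and 2 higher, the mt- rows 5 lower and 2 higher, and 1 Ndufaf gene lower. There mt-Co3 was 0.32 (limma adjusted p = 6.12e-10), mt-Nd5 0.16 (limma adjusted p = 0.000673) and Vdac2 0.005. The causes were not tested. As shares of all reads, the mt- sum was 79.7% of control and the nuclear sum 86.5%. TMM scaling, the other filters and pseudocounts, non-robust limma, edgeR and DESeq2 kept the nuclear count at 72, and the mt- count at 7 except for the filter at 50, which left 5. The 6 rows below the filter of 10 were not tested in the fit reported.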
